A study of Mus musculus with 6 samples.

Results

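The constitutive proteasome was examined through all rows of the array whose gene symbol begins with Psma, Psmb, Psmc, Psmd, Psme, Psmf or Psmg and a digit, without the inducible subunits Psmb8, Psmb9 and Psmb10. The symbols matched 47 rows for 45 genes, and 33 of these rows, for 32 genes, had a value on at least 4 of the 6 arrays and are called members here, out of 11629 tested probes for 9774 named genes. Lungs came from 6 C57 mice given ovalbumin (OVA) both to sensitize and to challenge them, a protocol that produces allergic airway inflammation, and from control C57 mice. Each array set the amplified RNA of 1 OVA lung against that of the controls, which had been pooled into 1 sample for all 6 arrays. The labels give neither age nor sex, and no number of mice in the pool. The sign of the ratio could not be assigned to the OVA mice or to the pool, so ratios are printed with their deposited sign and sizes as folds apart, which assume a logarithm of base 2 and would be larger for a natural or a common logarithm, with some members then past 2-fold for the common one.

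The proteasome is the protease that degrades ubiquitin-tagged proteins in the cytosol and nucleus. Its core particle is a barrel whose outer alpha rings (Psma genes) gate the entrance and whose inner beta rings (Psmb genes) carry the proteolytic sites. A regulatory cap binds the ends of the barrel: its base holds a ring of unfolding ATPases (Psmc genes) and its lid removes ubiquitin (most Psmd genes). Activators (Psme genes) bind the same ends without ATP, and dedicated chaperones (Psmg genes and some Psmd genes) assist assembly. In inflamed tissue, interferon is known to replace catalytic beta subunits by the inducible Psmb8, Psmb9 and Psmb10, the immunoproteasome.

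The arrays gave values for 10922 to 13132 probes, and the SD of the centred ratio over probes was 0.21 in mouse 3 and between 0.32 and 0.47 in the other mice. Across tested probes, Pearson r of mouse 3 with the other arrays was between 0.16 and 0.41, against 0.49 to 0.85 among the others. Probes are not independent replicates. The technical spread, taken within arrays from sequences spotted repeatedly, had SDs between 0.0812 and 0.226 (medians over arrays). Tissue markers differed from the pool as well. Of all 11629 tested probes, 24.4% passed the test (limma, adjusted p under 0.05). The negative side held 1431 of them, or 12.3% of all tested probes, and the positive side 1401. Among marker lists, 16 of 19 tested interferon-responsive genes, 6 of 11 macrophage genes and 9 of 12 cell cycle genes passed the test with a negative mean, and 7 of 10 heart muscle and 5 of 8 adipocyte genes with a positive one. The mean of each list ran from -1.64 to 0.07 over the mice for interferon genes, from -1.39 to 0.115 for macrophage genes, from -1.45 to -0.02 for cell cycle genes, from 0.22 to 1.97 for heart muscle and from 0.57 to 1.44 for adipocytes. Of 6 B and plasma cell genes 0 passed the adjusted test in limma, and 1 had an unadjusted p under 0.05. The part of these lists in the proteasome ratios was not tested. In whole lung, a difference in the number of cells of a type and a difference in RNA per cell cannot be told apart. A ratio does not show whether the markers of lung itself were present.

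Read as log2, no proteasome member's mean was 2-fold apart from the pool. Of the 33 members, 8 passed the test (limma, Benjamini-Hochberg adjusted p under 0.05), 7 with a negative mean (Psma1, Psma2, Psma4, Psmb2, Psmc6, Psmd11 and Psmd10) and 1 with a positive mean (Psmf1). That share, 24.2%, was near the background, as 24.4% of all tested probes passed. On the negative side 7 of 33 members stood beside 12.3% of all tested probes, or 1431 of the 2832 that passed. Counted by sign alone, 26 members had a negative and 7 a positive mean, and the median of the means was -0.09, against -0.003 over all tested probes. The means ran from -0.48 for Psma4 to 0.24 for Psmf1. Of the 27 members with a value in every mouse, 8 were negative in all 6 mice and none was positive in all 6, a share of 29.6% with the same sign throughout. Among all 8663 probes with 6 values that share was 30.2%, made up of 14.3% negative and 16.0% positive.

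**Figure D1:**
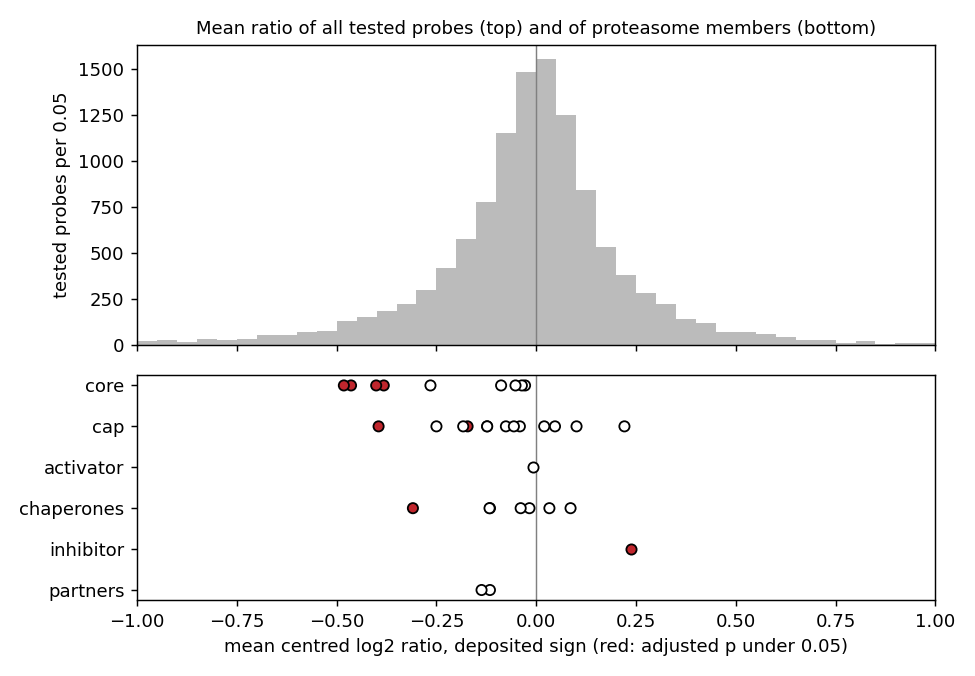
Mean centred log2 ratio (x axis) of all tested probes as a histogram (top, number of probes per interval of 0.05, with 178 probes beyond the axis not drawn) and of the 33 proteasome members as points by class (bottom, red for adjusted p under 0.05). The 9 core members all lie left of 0, while the cap members lie on both sides and the inhibitor Psmf1 is the only member past the threshold on the right.

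The core particle was measured through 9 of the 16 core genes on the array, 6 of the alpha and 3 of the beta ring. The 16 include Psma8 and Psmb11, forms known from testis and thymus. All 9 had a negative mean, between -0.48 and -0.03 with a median of -0.265. The medians over mice of Psma6 and Psmb6 were positive, at 0.03 and 0.04. Of the 9, 4 passed the test, all on the negative side, where 12.3% of all tested probes passed. Psma1 was the most even of these 4 over the mice, which were all set against the same pool. It lay between -0.65 in mouse 6 and -0.315 in mouse 4 with a median of -0.46, so no mouse came near 0. The mean was -0.46 ± 0.106 (SD, n = 6), or 1.38-fold apart, and had the lowest adjusted p of the members (limma, adjusted p = 0.00286).

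Psma4 had the lowest mean of all members. Its ratios ran from -0.77 in mouse 4 to -0.24 in mouse 5 with a median of -0.47, and the mean was -0.48 ± 0.193 (SD, n = 6), 1.40-fold apart (limma, adjusted p = 0.00622). Psma2 spread more widely, from -0.67 in mouse 6 to -0.11 in mouse 2 with a median of -0.34. All mice were still on the same side, and its mean was -0.38 ± 0.22 (SD, n = 6, 1.30-fold, limma adjusted p = 0.0156).

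The other measured subunits of the alpha ring did not pass. Psma5 averaged -0.265 ± 0.292 (SD, n = 6, limma adjusted p = 0.0984), with mice 1 and 4 at -0.68 and -0.57 and the others between -0.22 and 0.03. Psma3, whose tail contributes to the closed gate of the barrel, averaged -0.09 ± 0.172, and Psma6 -0.03 ± 0.16 (n = 6 each). In both, mice 1 and 2 were negative and mice 5 and 6 positive.

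In the beta ring only Psmb2, a subunit without catalytic activity, passed. It ran from -0.59 in mouse 2 to -0.10 in mouse 3 with a median of -0.41, and averaged -0.40 ± 0.189 (SD, n = 6, 1.32-fold, limma adjusted p = 0.00965). The catalytic subunit Psmb6, the caspase-like protease of the constitutive core, varied most within the core. It was at -0.80 in mouse 1, at 0.39 in mouse 5 and had a median of 0.04. Its mean of -0.05 ± 0.413 (SD, n = 6) did not pass (limma, adjusted p = 0.816), and its probe lies 24 numbers from that of the Fc receptor Fcgr1, which was at -1.87. The part of that neighbour was not tested. Mean ratios of tested probes 6, 18 and 24 numbers apart had a weak Pearson r of 0.13, 0.1 and 0.11. At distances of 7, 17, 19, 23 and 25 numbers r was between 0.01 and 0.03. Psmb1, a further structural subunit, was between -0.085 and 0.01 in the 4 mice with a value, with a mean of -0.04.

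**Figure D2:**
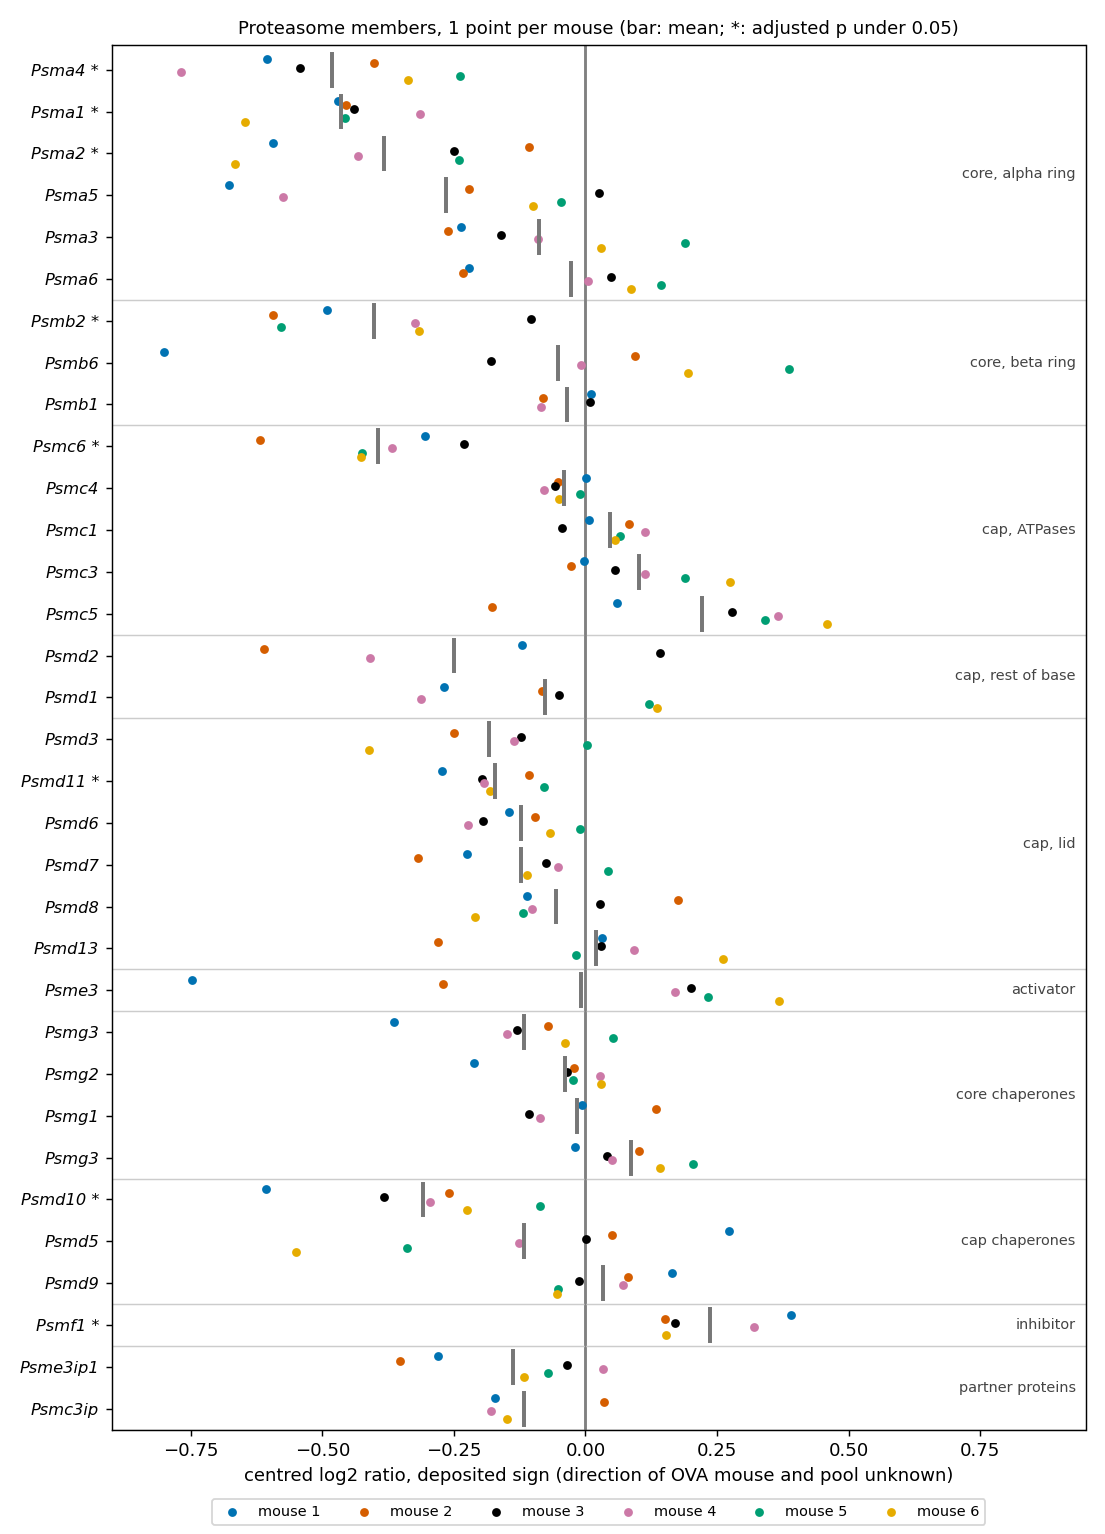
Centred log2 ratio (x axis, deposited sign) of each proteasome member (rows, grouped by class) with 1 coloured point per mouse and a grey bar at the mean; an asterisk marks adjusted p under 0.05. Psma1, Psma4, Psma2, Psmb2, Psmc6, Psmd11 and Psmd10 have every point left of 0, and Psmf1 has its 5 points right of 0.

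The regulatory cap was measured through 13 genes, of which 2 passed, both on the negative side, beside 12.3% of all tested probes. Its median of the means was -0.08, and 9 means were negative and 4 positive. Among the 5 measured ATPases, which unfold substrates and open the gate, Psmc6 alone passed. It lay between -0.62 in mouse 2 and -0.23 in mouse 3 with a median of -0.40, and every mouse was negative. The mean was -0.395 ± 0.133 (SD, n = 6), 1.32-fold apart (limma, adjusted p = 0.00552).

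Its ring partners lay elsewhere. Psmc5 had a mean of 0.22 ± 0.237 (SD, n = 6, limma adjusted p = 0.097), with 5 mice positive up to 0.46 in mouse 6 and mouse 2 at -0.18. Psmc3 averaged 0.10 ± 0.116, Psmc1 0.05 ± 0.057 and Psmc4 -0.04 ± 0.0304 (n = 6 each), and none of these passed. The SDs of Psmc1 and Psmc4 over mice were below the technical SDs given above. Psmc6 and Psmc5 had the lowest and the highest mean of the measured ATPases. Their values did not overlap, the highest of Psmc6 being -0.23 in mouse 3 and the lowest of Psmc5 -0.18 in mouse 2. This pair was picked with its values in view, and its difference was not tested.

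To show the sequence context of members with ratios alike in sign, promoters of Psma1, Psma4 and Psmc6, the members with the lowest adjusted p, follow from RefSeq (GRCm38.p6), each from 250 bases before to 50 bases after a gene start. They were searched on both strands for TGACNNNGC, the central part of the antioxidant response element through which Nfe2l1 and Nfe2l2 are known to act on proteasome genes, and for CCAAT, the box bound by the factor NF-Y. Capitals mark either motif as read on the printed strand. The Psma1 window (chr7:114276067-114276366, minus strand) holds CCAAT 98 bases before the start and its reverse complement 126 bases before. The Psmc6 window (chr14:45329574-45329873, plus strand) holds the reverse complement of TGACNNNGC 227 bases before the start, and the Psma4 window (chr9:54950609-54950908, plus strand) holds neither.
Psma1: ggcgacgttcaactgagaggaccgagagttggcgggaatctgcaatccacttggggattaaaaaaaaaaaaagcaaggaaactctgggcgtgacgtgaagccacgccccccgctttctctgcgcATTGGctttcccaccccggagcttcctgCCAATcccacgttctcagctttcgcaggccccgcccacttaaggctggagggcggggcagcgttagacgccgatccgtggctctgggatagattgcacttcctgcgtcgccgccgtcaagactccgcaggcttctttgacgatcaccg
Psmc6: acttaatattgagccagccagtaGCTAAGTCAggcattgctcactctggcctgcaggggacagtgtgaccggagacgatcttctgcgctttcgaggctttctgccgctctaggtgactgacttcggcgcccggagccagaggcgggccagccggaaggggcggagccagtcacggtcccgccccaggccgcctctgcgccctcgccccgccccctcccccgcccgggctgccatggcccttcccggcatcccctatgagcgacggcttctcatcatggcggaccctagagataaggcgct
Psma4: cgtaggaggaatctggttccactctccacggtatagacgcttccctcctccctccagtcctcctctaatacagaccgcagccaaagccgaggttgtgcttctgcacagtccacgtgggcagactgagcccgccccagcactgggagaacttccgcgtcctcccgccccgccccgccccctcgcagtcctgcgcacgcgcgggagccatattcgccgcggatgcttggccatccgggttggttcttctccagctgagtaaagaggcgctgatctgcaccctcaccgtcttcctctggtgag

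Windows were listed for 24 of the 30 genes that are proteasome subunits, chaperones or the inhibitor. TGACNNNGC stood in those of 3 genes, Psmc6, Psmb6 and Psmd9, while 12.4% of all 32851 RefSeq windows of 300 bases held it. CCAAT stood in 7 of the 24, against 37.4% of all windows. Among the 7 genes past the threshold that have a window, 1 held TGACNNNGC and 3 held CCAAT (Psma1, Psma2 and Psmd10), and among the 17 others 2 and 4 did. A match describes these letters in this window and shows no binding, and the letters may lie outside it.

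In the rest of the cap, the scaffold subunits of the base did not pass. Psmd1 averaged -0.08 ± 0.188 (SD, n = 6), and Psmd2, a docking platform for ubiquitin shuttles, -0.25 ± 0.329 in 4 mice, from -0.61 in mouse 2 to 0.14 in mouse 3. The probe of Psmd2 lies 6 numbers from that of the collagen Col3a1, which was at -1.67, and the part of that neighbour was not tested.

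Of 6 lid genes, Psmd11, a subunit at the contact of lid and core, passed. It ran from -0.27 in mouse 1 to -0.08 in mouse 5 with a median of -0.19, so it was small in size but negative in every mouse. Its mean was -0.17 ± 0.0698 (SD, n = 6, 1.13-fold, limma adjusted p = 0.0194). Psmd6 was likewise negative in 6 of 6 mice, at -0.12 ± 0.0806, but missed the threshold (limma, adjusted p = 0.065). Psmd3 averaged -0.18 in 5 mice and Psmd7, a scaffold of the deubiquitinating module, -0.12 in 6. Psmd8 at -0.06 and Psmd13 at 0.02 had mice on both sides. The probe of Psmd13 lies 18 numbers from that of Ldb3, which was at 1.10, and this neighbour's part was not tested either.

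Core and cap differed in their medians over genes in each mouse. The core median was -0.49, -0.23, -0.16, -0.315, -0.14 and -0.21 in mice 1 to 6, against -0.12, -0.11, -0.05, -0.10, -0.004 and -0.06 for the cap. The core lay below the cap in 6 of 6 mice, and the difference, core minus cap, was -0.11 in mouse 3 and -0.375 in mouse 1. Its mean was -0.186 ± 0.0995 (SD over 6 mice). The alpha ring was below the beta ring and below the ATPases in 6 of 6 mice too, with mean differences of -0.134 and -0.31. Alpha minus beta was small in mice 1 and 5, at -0.04 and -0.05, and largest in mouse 4, at -0.29. Psmb1 had no value in mice 5 and 6, so the beta median there rests on Psmb2 and Psmb6. In mouse 5 these were far apart, at -0.58 and 0.39. The core, cap, alpha ring, beta ring and ATPases hold 9, 13, 6, 3 and 5 genes. All were measured on the same arrays against the same pool, so the differences are given as descriptions with no test.

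**Figure D3:**
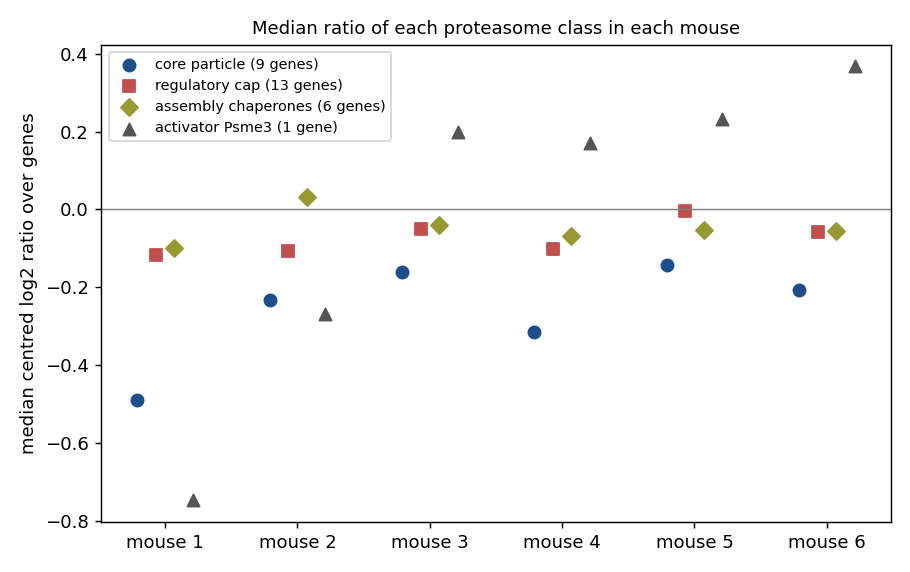
Median centred log2 ratio over genes (y axis) of the core particle, the regulatory cap, the assembly chaperones and the activator Psme3 in each of the 6 mice (x axis). The core median lies below that of the cap in every mouse, while Psme3 lies below 0 in mice 1 and 2 and above it in the others.

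The activators could be compared through Psme3 alone. It forms the nuclear activator that promotes degradation without ubiquitin, and it had the largest SD of all 33 members. Psme3 ratios were -0.75 in mouse 1, -0.27 in mouse 2, 0.20 in mouse 3, 0.17 in mouse 4, 0.23 in mouse 5 and 0.37 in mouse 6. Mice 1 and 2 were thus on the other side of 0 from the rest, and the mean of -0.01 ± 0.422 (SD, n = 6) did not pass (limma, adjusted p = 0.975). Psme3 was above the core's median in mice 3 to 6 and below it in mice 1 and 2. Without mouse 1 its mean was 0.14. Psme1 had values in 2 mice, and Psme2 and Psme4 in none, so the interferon-inducible activator of Psme1 and Psme2 was not compared.

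Among the assembly factors, Psmd10, also known as gankyrin, a chaperone of the ATPase ring, passed. It lay between -0.61 in mouse 1 and -0.09 in mouse 5 with a median of -0.28, on the same side in 6 of 6 mice. The mean was -0.31 ± 0.175 (SD, n = 6, 1.24-fold, limma adjusted p = 0.0167). The other chaperones of that ring did not pass. Psmd5 averaged -0.12 ± 0.293, with 0.27 in mouse 1 and -0.55 in mouse 6, and Psmd9 averaged 0.03 ± 0.0873 (n = 6 each).

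Of the measured core chaperones 0 passed in limma, and 0 had an unadjusted p under 0.05. Psmg1 was at -0.02 in 4 mice and Psmg2 at -0.04 in 6. The probes of Psmg3 disagreed in sign, with means of -0.12 and 0.09, and neither passed (limma, adjusted p = 0.165 and 0.158). The inhibitor Psmf1, which binds the core and blocks it in vitro, was the only member past the threshold on the positive side. It was at 0.39 in mouse 1, 0.15 in mouse 2, 0.17 in mouse 3, 0.32 in mouse 4 and 0.15 in mouse 6, with no value in mouse 5. All 5 values were positive, and the mean was 0.24 ± 0.111 (SD, n = 5, 1.18-fold, limma adjusted p = 0.0238).

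A further pair of genes met the symbol rule without being proteasome parts. Psmc3ip, a partner protein in meiotic recombination, averaged -0.116 in 4 mice, and Psme3ip1, a partner of Psme3, -0.14 in 6 (limma, adjusted p = 0.202 and 0.127).

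The inducible subunits, which replace catalytic subunits of the constitutive core, had means below and SDs above those of all 33 members. Psmb9, which takes the place of Psmb6, ran from -1.83 in mouse 1 to 0.17 in mouse 3 and averaged -0.86 ± 0.699 (SD, n = 6, limma adjusted p = 0.0358). Psmb9 no longer passed when mouse 1, 2, 4, 5 or 6 was left out, with adjusted p between 0.0605 and 0.106. Psmb8 averaged -0.66 ± 0.633 (n = 6) and Psmb10 -0.57 ± 0.594 (n = 5), and neither passed (limma, adjusted p = 0.0602 and 0.0985), although Psmb8 did without mouse 3 (-0.86, limma adjusted p = 0.0119) and with array weights (-0.65, limma adjusted p = 0.0276). In mouse 3 all of them were positive, at 0.17, 0.32 and 0.03. Of the 32 members measured in that mouse, 20 were negative and 12 positive. Within arrays, the deposited ratio of Psmb9 was below that of Psmb6, whose probe lies near that of Fcgr1 as given above, in 5 of 6 mice. The ratio of Psmb9 minus that of Psmb6 averaged -0.81 ± 0.624 (SD, n = 6). This difference did not pass an exact two-sided permutation test of signs (p = 0.0625, where 0.0312 is the smallest possible). It does not compare the amounts of these transcripts.

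Around the proteasome, a list of 14 other subunits, assembly factors and regulators had 9 genes tested through 10 probes, and 3 passed, all negative, with a median of the gene means of -0.12. Akirin2, which brings proteasomes into the nucleus, averaged -0.45 ± 0.387 with mice 1, 2 and 4 between -0.92 and -0.67 and the others between -0.21 and -0.05 (n = 6, limma adjusted p = 0.0464). Txnl1, a thioredoxin-like protein bound to the cap, averaged -0.38 ± 0.174 (limma, adjusted p = 0.00955), and the cap deubiquitinase Usp14 -0.14 ± 0.0753 (limma, adjusted p = 0.0378), both negative in 6 of 6 mice. When single mice were left out, Akirin2 kept its call only without mouse 3 and Usp14 only without mouse 1, while Txnl1 kept it each time. The lid subunit Sem1 was at 0.21 (adjusted p = 0.119). Nfe2l1 and Nfe2l2 averaged -0.12 and -0.04, and neither passed (limma, adjusted p = 0.34 and 0.725). Nfe2l1 was at 0.37 in mouse 1 and between -0.275 and -0.13 in the others, and without mouse 1 it passed (-0.22, limma adjusted p = 0.0177).

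Of 24 genes of ubiquitin, its conjugation and substrate delivery, 14 were tested through 17 probes. The count past the threshold was 5, all negative, and the median of the gene means was -0.155. The largest ratio was that of Ube2n, a conjugating enzyme whose chains serve mainly signalling, which ran from -1.30 in mouse 1 to -0.265 in mouse 6 and averaged -0.80 ± 0.365 (SD, n = 6, 1.74-fold, limma adjusted p = 0.00729). The conjugating enzymes Ube2d1 and Ube2d2a averaged -0.40 ± 0.0933 and -0.22 ± 0.137 (limma, adjusted p = 0.00338 and 0.0271). Ube2s, which extends chains for the anaphase-promoting complex, averaged -0.33 ± 0.227 on the probe that passed (limma, adjusted p = 0.0264) and -0.075 on the other, which did not. Rad23b, a shuttle that carries tagged proteins to the cap, averaged -0.32 ± 0.157 (limma, adjusted p = 0.0121). The ligase Stub1 was on the positive side with means of 0.15 and 0.24 on its probes, and neither passed, although their average did (0.20, limma adjusted p = 0.0327). Without single mice, Ube2n, Ube2d1 and Rad23b kept their calls, while Ube2s lost its call without mouse 1, 2 or 4 and Ube2d2a without mouse 2, 4 or 6. The shares of probes past the threshold in both lists, 30.0% and 29.4%, stood beside 24.4% of all tested probes on either side and, as all of these calls were negative, beside 12.3% on the negative side.

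**Figure D4:**
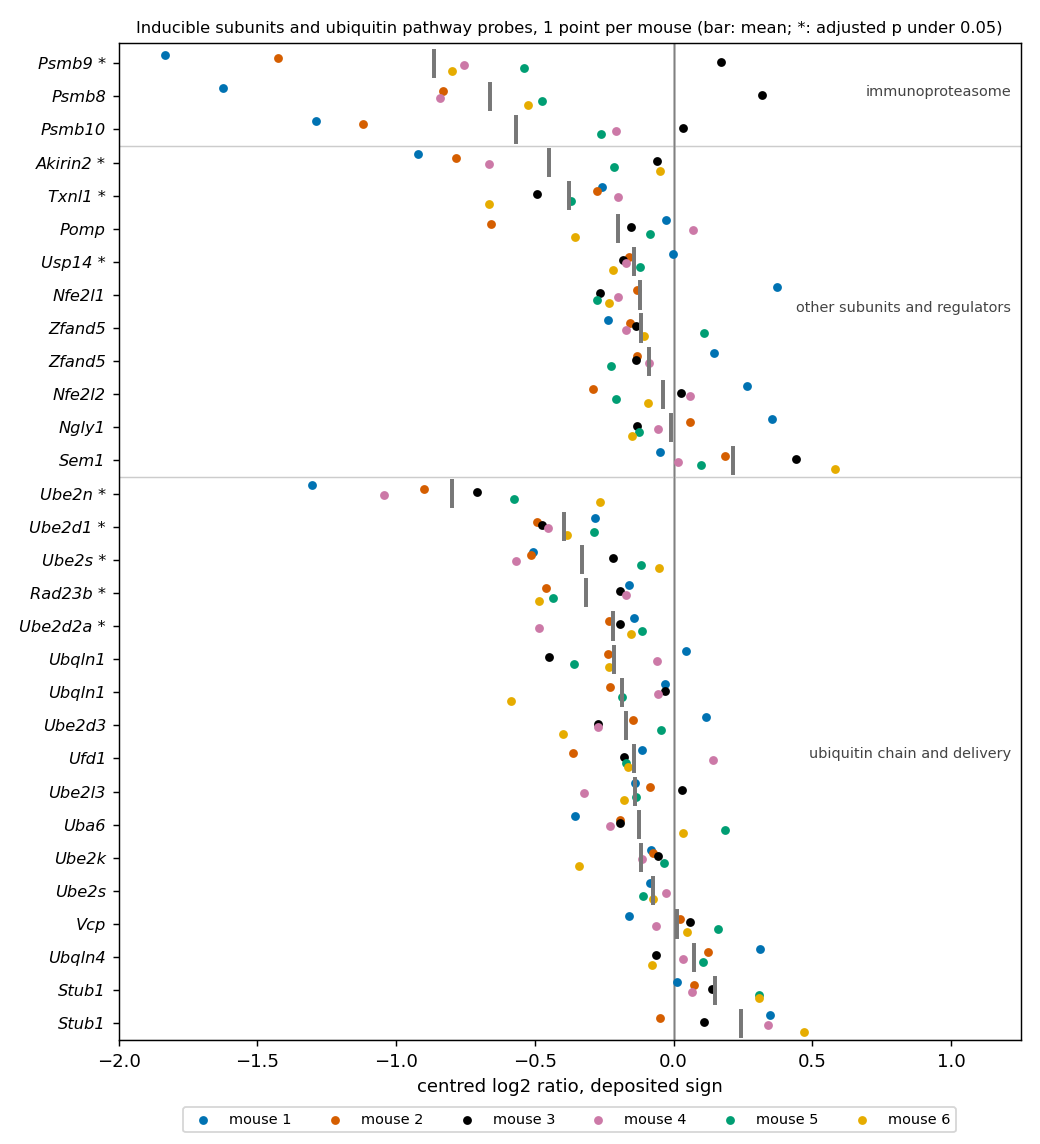
Centred log2 ratio (x axis, deposited sign) of inducible proteasome subunits, other proteasome genes and genes of ubiquitin and delivery (rows, 1 per probe) with 1 coloured point per mouse and a grey bar at the mean; an asterisk marks adjusted p under 0.05. The inducible subunits reach below -1 in mouse 1, Psmb9 and Psmb10 in mouse 2 too, and all lie right of 0 in mouse 3, while Ube2n, Ube2d1 and Rad23b have every point left of 0.

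The calls on Psma1, Psma4, Psmb2 and Psmc6 were kept when any single mouse was left out and at an adjusted p of 0.01. Those on Psma2, Psmd10, Psmd11 and Psmf1 were lost without mouse 4, when 4 of 33 members and 11.4% of all probes passed. Psmd11 was also lost without mouse 6 and Psmf1 without mouse 2. Without mouse 3, whose array stood apart, the same 8 members passed, beside 26.1% of all probes.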

How the data were processed

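The authors deposited 1 log ratio per spot and array, here taken as log2 ratios. No source used here gives the scanner, background correction, normalization, dyes, log base or direction of the ratio. Each array was centred on its median. Left out were 170 rows that repeat 10 sequences and 4 plant control rows. Probes with values on at least 4 arrays entered a test against 0 (limma 3.58.1, R 4.3.3, intercept alone, eBayes, two-sided), with Benjamini-Hochberg adjustment over all 11629 probes and a threshold of 0.05. The control pool is 1 sample shared by all arrays, so its own spread is not in the test, and the number of arrays limits the precision. A value peculiar to this pool would shift a gene's ratio on every array. For the calls given here it cannot be told apart from a difference of the OVA mice.

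Members were found by their platform symbol, and their classes are textbook assignments. The members and lists were chosen with earlier results of these data known. Lists are described by counts and medians, with 1 value per gene in class medians. Members past the threshold, and those with the largest SD and the lowest and highest mean, are described by the spread over mice. The rest are given by their means, with single mice added for some, such as Psma5, Psmb6, Psmc5, Psmd2 and Psmd5, picked with their values in view. Naming of other pathway genes was limited to those past the threshold, the largest mean first, apart from Nfe2l1, Nfe2l2, Sem1 and Stub1, picked with their values in view. The fit was tested on simulated data. Promoter windows are those of RefSeq (GRCm38.p6). Alternatives were other centring and scaling, other minimum numbers of arrays, array weights, other variance settings, genes in place of probes, a stricter threshold, leaving out probes beside a stronger one, and leaving out each mouse. Figures used matplotlib 3.10.9 (Python 3.11.15).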

Additional observations from a re-analysis of the deposited data

Results flagged for a closer look

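Over 37 sets of values by mouse, 33 of members and 4 of class medians, 2 had a mouse far from the others, and chance alone gives about 1 in 20 such sets. Psmg2, a core chaperone, was at -0.211 in mouse 1, while its next lowest mouse was at -0.04. Psmc3ip, the recombination partner protein, was at 0.036 in mouse 2, against -0.15 or lower in the 3 other mice with a value. Neither gene passed the test against the pool.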

How the results depend on the processing

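Of the members, 8 passed the test in the reported fit and the same 8 passed without centring, with scaled or quantile-normalized arrays, with values on at least 3 arrays, array weights, robust eBayes, genes in place of probes and without probes beside a stronger one. With values on all 6 arrays 7 passed, since Psmf1 could not be tested. With unmoderated variances 5 members, 1444 of all probes and 3 ubiquitin and delivery probes passed. Counts were higher with array weights, at 3384 of all probes and 7 of ubiquitin and delivery, and with genes in place of probes, at 7 genes of ubiquitin and delivery, against 2832 and 5 in the reported fit. At an adjusted p of 0.01 there were 4 members, 1 of them in the cap, 746 of all probes, 1 probe of the other proteasome genes and 2 of ubiquitin and delivery. Leaving out single mice gave 4 to 8 members, 3 to 4 of the core, 1 to 3 of the cap, 0 of the activator, 1 to 3 probes of the other proteasome genes, 3 to 6 of ubiquitin and delivery, and 1325 to 3036 of all probes. Psmd11 was lost without mouse 6 or 4, Psmf1 without mouse 2 or 4, and Psmc5 passed on the positive side without mouse 2.

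The core median stayed between -0.32 and -0.18 and the cap median between -0.12 and -0.05, and core minus cap between -0.268 and -0.133. The variance settings cannot move these medians. As each called member had values of 1 sign, leaving out mice and scaling or weighting arrays could not reverse its mean. No called member changed sign in any setting. Genes without a call that did were the members Psme3, at 0.035 with scaled arrays, 0.042 with quantile normalization, 0.053 with array weights and between -0.083 and 0.14 without single mice, Psmb6, at 0.032 with array weights and between -0.14 and 0.098, Psma6 between -0.063 and 0.012, Psmg1 between -0.067 and 0.013 and Psmd13 between -0.029 and 0.08 without single mice, the regulator Nfe2l2, which is no member, between -0.101 and 0.01 without single mice, and the second Psmg3 probe, at -0.015 when averaged with the first. The cause of these changes was not tested. No paired analysis was possible because all mice form 1 group set against 1 pool. The ratios give no signal over background, so what faint spots limit could not be examined.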

Other observations

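Proteasome rows with values on 1 to 3 arrays were left out of the comparisons. The alpha subunit Psma7 was at -0.02 in mouse 2. Psma8, the form of the alpha ring known from testis, was at -0.02, -0.10 and -0.03 in mice 1, 4 and 6, and Psmb11, the form of the beta ring known from thymus, at -0.08 in mouse 6. The catalytic subunit Psmb7 was at 0.08, -0.008 and 0.34 in mice 2, 4 and 6. The ubiquitin receptor Psmd4 was at -0.04 in mouse 1 and 0.12 in mouse 3, and the activator subunit Psme1 at -0.26 in mouse 1 and -0.01 in mouse 5. A further probe of Psmd11 was at -0.05 in mouse 6. Psmb3, Psmb4, Psmb5, Psmd12, Psmd14, Psme2 and Psme4 had a row without any value, so the catalytic subunit Psmb5 and the lid deubiquitinase Psmd14 were not compared.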
